A study of Homo sapiens with 2 samples.

Results

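The Argonaute proteins and the enzymes that make their small RNAs were read in KG1 cells, a human CD34-positive acute myeloid leukaemia line, after knockdown of the transcription factor T-bet. The set holds 10 genes, namely AGO1, AGO2, AGO3, AGO4, DROSHA, DGCR8, XPO5, DICER1, TARBP2 and PRKRA, of 19775 genes on the array. The members were taken by name, as every probe set that the platform annotation lists for one of these symbols, which gave 34 of 54675 probe sets. The genes were chosen by name, but the set was selected on the ratio of AGO2 between these same arrays, which was high, so the values below are a description.

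Small RNAs guide Argonaute proteins to matching messages. A microRNA is cut out of its primary transcript in the nucleus by the Microprocessor, which consists of the nuclease DROSHA and its RNA-binding partner DGCR8, and the hairpin is carried to the cytoplasm by exportin-5 (XPO5). DICER1, helped by the double-stranded RNA-binding proteins TRBP (TARBP2) and PACT (PRKRA), trims it to a duplex, and an Argonaute keeps one strand as its guide. A synthetic siRNA enters the same route at the loading step, and AGO2 is the Argonaute known for cutting perfectly matched targets. The loading and Argonaute part of this machinery thus carries out the knockdown that the study relied on.

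Both groups were transfected KG1 cells. The group siRNA-Tbet was electroporated with 1.98 µg of the T-bet siRNA, and the group siRNAc with the same mass of a control siRNA. Both then rested for 5 h and received interleukin-18 (IL-18), a cytokine that induces interferon-γ, at 10 ng/ml for 12 h. The electroporation, the load of siRNA and IL-18 were thus shared, and neither untransfected nor unstimulated cells were analysed here. Each group was 1 array of total RNA from 1 cell line, so no value has a replicate error, no test was possible, and fewer cells expressing a gene cannot be told apart from less RNA per cell.

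Values are MAS5 signals, a linear brightness per probe set in arbitrary units. A probe set was called measured when its signal lay above its array's median (144.2 for siRNA-Tbet and 146.4 for siRNAc) on at least 1 array. Signals below the median were raised to it before the log2 ratio of siRNA-Tbet over siRNAc was taken. The usual spread, given beside some of the ratios, is the SD of the log2 ratio between probe sets of one gene at that signal. It holds technical noise and any difference between transcript forms, and leaves out variation between cultures. The 2 arrays had a rank correlation of 0.938, and the median log2 ratio of the 12164 measured genes was -0.02. TBX21, which encodes T-bet, read 1839 in the cells given its siRNA and 3581 in the control cells, 1.95-fold lower. CD34, which defines the line, was bright on both arrays (17130 and 15839), while the monocyte marker CD14 (4.54 and 6.34) and the epithelial marker EPCAM (10.1 and 8.76) lay far below the median. The epithelial keratins were dim but measured, with KRT8 at 304 and 319 and KRT18, on a probe set that can cross-hybridise, at 235 and 113, below the median with siRNAc. The part of other cell types in the results was not tested. At least 1 measured probe set was found for 7 of 8 listed markers of KG1 and 6 of 11 of other cell types, the brightest of the latter being PECAM1, which myeloid cells also carry (2853 and 2935).

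Which transcript a probe set reads decides what can be said of a pair of members, AGO2 and DGCR8. AGO2 has 4 probe sets, of which 1 is listed for AGO2 alone and the others for AGO2 together with CASC7. RefSeq now gives CASC7 as an older name of AGO2 and holds no separate entry for it. All 4 probe sets listed for DGCR8 are also listed for MIR1306, a microRNA gene. The stem-loop of MIR1306 and that of MIR3618 lie inside the DGCR8 gene, whose own message the Microprocessor is known to cut at such stem-loops. Their mature sequences from RefSeq are shown because the double listing refers to the first gene, and the second is its neighbour in the same message. They lie on the plus strand in GRCh38.p14, at chr22:20085797-20085818 for miR-3618, chr22:20086072-20086093 for miR-1306-5p and chr22:20086112-20086129 for miR-1306-3p, and capitals mark the seed (bases 2 to 8).
hsa-miR-3618: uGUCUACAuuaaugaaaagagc
hsa-miR-1306-5p: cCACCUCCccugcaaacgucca
hsa-miR-1306-3p: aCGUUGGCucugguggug
The 3 seeds differ from each other. The array reads messages and not mature microRNAs, so none of these sequences has a value of its own here.

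Over the whole set, the measured members lay on both sides of 0. With each gene read by its brightest probe set among those listed for 1 gene, 9 of the 10 members were measured, DGCR8 having no probe set of its own. Of these, 3 had a higher and 6 a lower signal with siRNA-Tbet, with a median log2 ratio of -0.03, beside -0.02 over all measured genes, of which 46.3% were higher. A difference of 1.5-fold or more was seen in 1 member that was higher, AGO2, and in 0 that were lower. This count rests on leaving out the AGO2 probe sets shared with CASC7, an older name of AGO2. With shared probe sets counted, AGO2 was read at -0.01, and 0 of 10 measured members reached 1.5-fold. Over all measured genes, 1.96% were at least 1.5-fold higher and 2.96% at least 1.5-fold lower. Of the 34 probe sets, 26 were measured, and 10 of these were higher and 16 lower. Over all 29051 measured probe sets, 48.4% were higher and 51.6% lower. Probe sets of the same gene are not independent values.

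**Figure D1:**
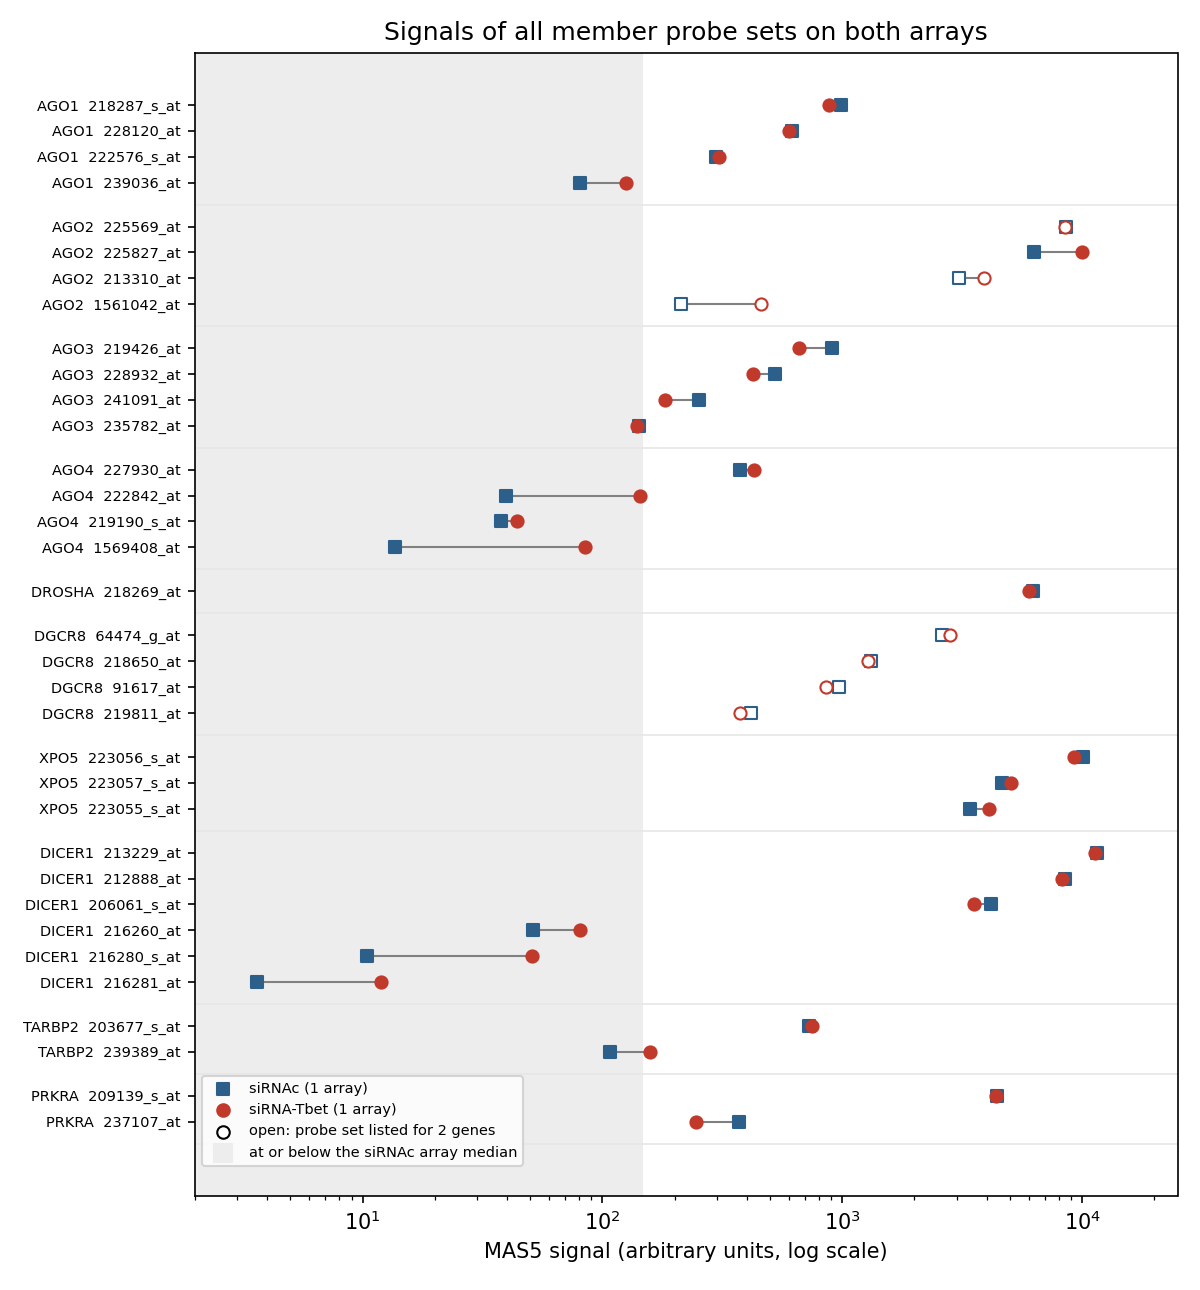
MAS5 signal (arbitrary units, log axis) of all 34 probe sets of the members, 1 per row, on the siRNAc array (squares) and the siRNA-Tbet array (circles), joined by a line; open symbols are probe sets listed for 2 genes, and the grey zone lies at or below the siRNAc array's median of 146.4. The symbols of most bright probe sets nearly coincide, while those of AGO2 probe set 225827_at stand apart at 6300 and 9970.

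AGO2, the Argonaute that can cut its target, gave different answers on its different probe sets. The probe set listed for AGO2 alone, 225827_at, read 9970 with siRNA-Tbet against 6300 with siRNAc, 1.58-fold higher (log2 ratio 0.66). That ratio exceeded those of 99.9% of the 2905 measured probe sets in its signal decile, where the median was 0.04. The set was selected on the ratio of AGO2, so this high rank and the gap given below are a description only. The brightest of the shared probe sets, 225569_at, had nearly equal signals, 8460 with siRNA-Tbet and 8534 with siRNAc (log2 ratio -0.01, percentile 33.8 in the same decile). The log2 ratios of these 2 bright probe sets were 0.67 apart, where the usual spread at that signal is 0.17 for 1 ratio and 0.24 for the difference of 2. The shared probe set 213310_at lay between them, at 3919 and 3073 (1.28-fold higher, log2 ratio 0.35, percentile 97.3). The dim shared probe set 1561042_at had 459 and 214, 2.15-fold higher (log2 ratio 1.10), where the usual spread is 0.40. AGO2 was thus higher with siRNA-Tbet on 3 of 4 probe sets, and the exception was the brightest by the mean of both arrays; with siRNA-Tbet alone 225827_at was brighter.

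The log2 ratios of AGO2 spanned 1.12 from lowest to highest, the highest being that of the dim shared probe set 1561042_at. Among the 736 genes with 4 measured probe sets of their own the median span was 0.48, and 3.67% had a span as wide as that of AGO2 or wider. Those genes were not matched to AGO2 for signal and were read only on probe sets listed for 1 gene. AGO2 was also the gene the set was selected on, so the 3.67% is not a like-for-like rank. When the shared probe sets were counted as AGO2, a choice made after the values were seen, the brightest-probe-set rule picked 225569_at, and 0 members differed 1.5-fold. Probes of one gene can lie in different transcript forms, and the position of these probes along AGO2 was not used here.

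AGO3, an Argonaute that binds the same small RNAs, had lower signals with siRNA-Tbet on every measured probe set. Its brightest, 219426_at, had 660 with siRNA-Tbet and 906 with siRNAc, 1.37-fold lower (log2 ratio -0.46, percentile 7.02 in its decile). The next, 228932_at, had 426 and 522 (log2 ratio -0.29), and 241091_at had 182 and 253 (log2 ratio -0.47). The fourth, 235782_at, lay below the median on both arrays, at 139 and 142. Among the 1669 genes with 3 measured probe sets, 18.5% were lower on all of them, so such agreement was common. At these signals the usual spread between probe sets is 0.27 to 0.40, and the 3 ratios of AGO3 lay within 0.18 of each other.

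AGO1 and AGO4, the other 2 Argonautes, stayed close to the rest of the array. AGO1 had 882 with siRNA-Tbet and 991 with siRNAc on 218287_s_at (log2 ratio -0.17). Its other measured probe sets gave 602 against 615 and 305 against 298, with log2 ratios of -0.03 and 0.04. AGO4 was measured on 227930_at alone, at 431 and 376 (1.15-fold higher, log2 ratio 0.20), where the usual spread is 0.34. Its other 3 probe sets were below the median on both arrays, with pairs of 143 and 39.8, 84.5 and 13.7, and 44.0 and 37.9, so no ratio was taken from them. AGO4, AGO1 and AGO3 follow each other on chromosome 1 in RefSeq with only a pseudogene (CFAP97P1) listed between, and the brightest probe sets of these neighbours had log2 ratios of 0.20, -0.17 and -0.46.

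**Figure D2:**
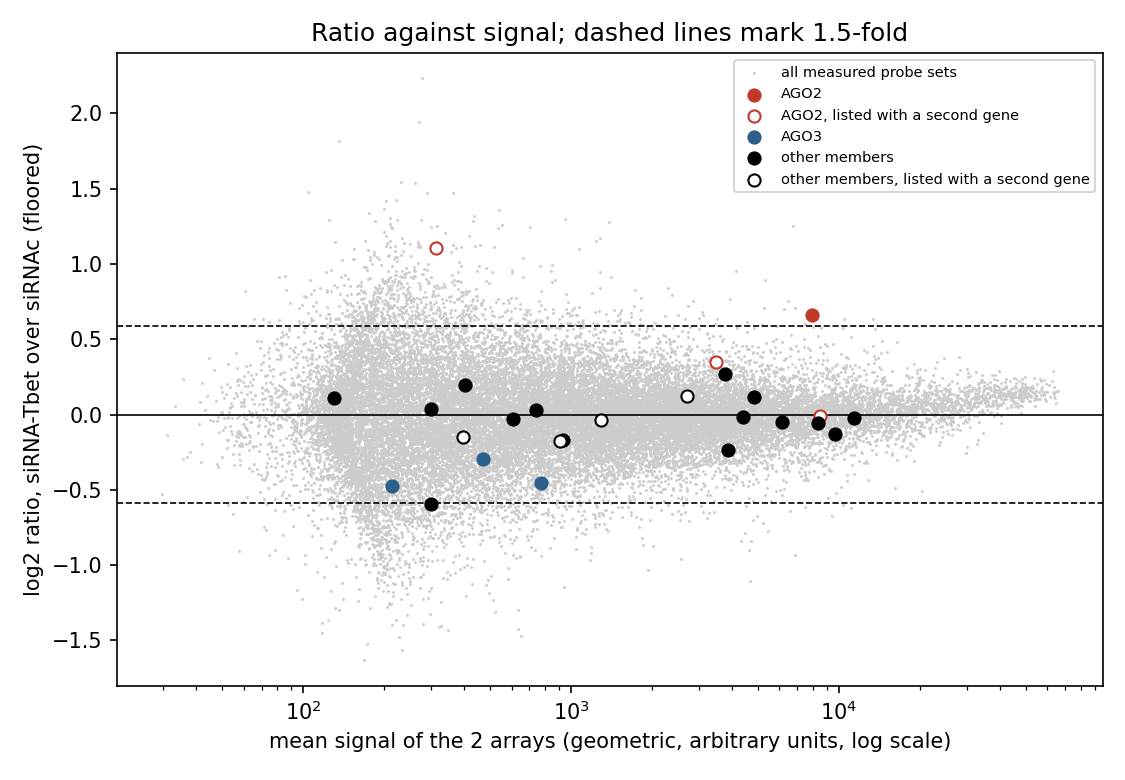
Log2 ratio of siRNA-Tbet over siRNAc (vertical axis, signals below the array median raised to it) against the geometric mean signal of the 2 arrays (arbitrary units, log axis) for all 29051 measured probe sets (grey) and the 26 of the members; dashed lines mark 1.5-fold. AGO2 225827_at (filled red) stands at 0.66 above the grey cloud, an open red point of similar signal lies at -0.01, and the 3 AGO3 points lie between -0.47 and -0.29 inside the cloud.

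The Microprocessor genes differed little, while the probe sets of XPO5 disagreed. DROSHA, the nuclease of the Microprocessor, had 6020 with siRNA-Tbet and 6234 with siRNAc on its single probe set (log2 ratio -0.05, usual spread 0.18). The probe sets listed for DGCR8 and MIR1306 gave 2827 against 2594 on the brightest, 64474_g_at (log2 ratio 0.12). The others had 1284 against 1314, 855 against 968, and 375 against 416, so 1 was higher and 3 were lower, none by more than 1.13-fold. XPO5, the hairpin exporter, had 9233 and 10111 on its brightest probe set 223056_s_at (log2 ratio -0.13, percentile 10.6 in its decile, usual spread 0.17). The others had 5041 and 4646 (0.12), and 4110 and 3408 (0.27, percentile 94.7, usual spread 0.21). The direction of XPO5 therefore depended on which probe set was read.

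Dicer and its partners were also nearly level on their brightest probe sets. DICER1 had 11325 with siRNA-Tbet and 11529 with siRNAc on 213229_at (log2 ratio -0.03). Its second bright probe set had 8213 and 8528 (-0.05), and 206061_s_at had 3554 and 4188 (-0.24). All 3 measured probe sets of DICER1 were lower, the first pair by less than the usual spread of 0.17 to 0.18. The third, 206061_s_at, was lower by more than its usual spread of 0.21 (percentile 8.12 in its decile). Among genes with 3 measured probe sets, 18.5% were lower on all of them. The remaining 3 probe sets of DICER1 lay below the median on both arrays. TARBP2, which steadies Dicer and passes on the duplex, had 745 and 730 (log2 ratio 0.03), and 158 against 107 on its dim probe set, where the siRNAc signal was below the median.

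PRKRA, whose product PACT also activates the antiviral kinase PKR, was another member whose probe sets differed. Its bright probe set 209139_s_at had 4371 with siRNA-Tbet and 4416 with siRNAc (log2 ratio -0.01). Its dim one, 237107_at, had 246 and 370, 1.51-fold lower (log2 ratio -0.59, percentile 7.88 in its decile). At that low signal the usual spread is 0.40. Of all measured probe sets, 3.56% were at least 1.5-fold lower and 2.95% at least 1.5-fold higher. Among the members' 26, 1 was at least 1.5-fold lower (this PRKRA probe set) and 2 were at least 1.5-fold higher, both of AGO2.

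The genes that work with this machinery were read from lists of 80 other genes, of which 72 were measured. On their brightest probe sets, 38 of these were higher and 34 lower with siRNA-Tbet, with a median log2 ratio of 0.02. Read this way, 0 reached 1.5-fold in either direction. Over all measured genes, 46.3% were higher, which is also the background for each list below. At 1.5-fold or more, 1.96% of all measured genes were higher and 2.96% lower. Other probe sets of the listed genes passed 1.5-fold both ways, among them LSM14A (0.95), TNRC6C (0.88), DCP2 (-0.77) and KHSRP (-0.95). In the list of Argonaute partners and loading factors, 12 of 19 measured genes were higher and 7 lower (median 0.09). The GW182 proteins, the scaffolds that Argonautes recruit to silence a message, gave no single direction. On its brightest probe set TNRC6A had 3188 against 2544 (log2 ratio 0.33), but 4 of its 6 measured probe sets were lower, down to -0.71. TNRC6C had 916 against 730 (0.33), with 3 of 5 higher, and TNRC6B 1204 against 1723 (-0.52), with 5 of 6 lower. MOV10, a helicase that binds Argonautes and is also known as an antiviral factor, had 2175 against 3026 (1.39-fold lower, log2 ratio -0.48). Its other probe set was lower by less (-0.10), and 29.4% of genes with 2 measured probe sets were lower on both.

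**Figure D3:**
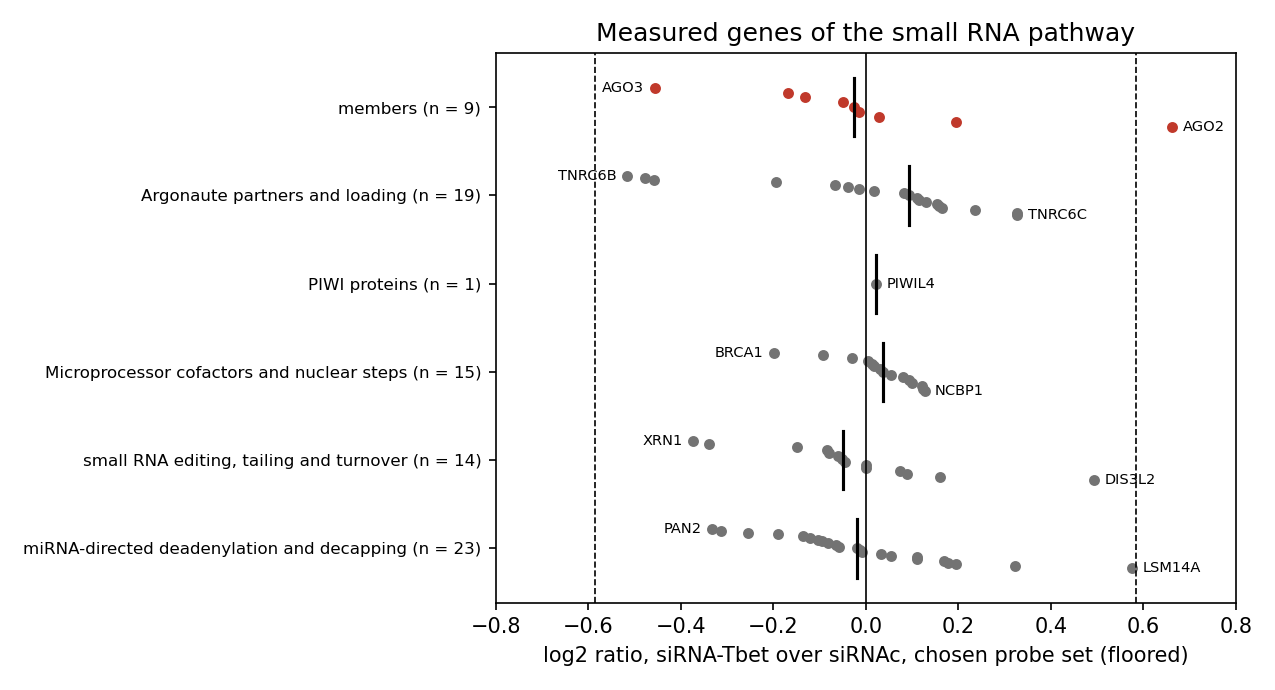
Log2 ratio of siRNA-Tbet over siRNAc on each gene's chosen probe set for the 9 measured members (red) and 72 measured genes of 5 lists (grey); black bars are list medians, dashed lines mark 1.5-fold, points are spread vertically for legibility, and the lowest and highest gene of each list are named. AGO2, read by the probe set listed for it alone, is the only point outside the dashed lines, and LSM14A at 0.58 lies just inside.

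Downstream of Argonaute, messages lose their tail and cap. In the list of deadenylation and decapping genes, 9 of 23 measured genes were higher and 14 lower (median -0.02). LSM14A, a protein of the cytoplasmic P-bodies, had 10499 with siRNA-Tbet and 7041 with siRNAc, 1.49-fold higher, and was higher on all 3 of its probe sets (log2 ratios 0.58 to 0.95). Among genes with 3 measured probe sets, 14.6% were higher on all of them. CNOT6, a deadenylase of the CCR4-NOT complex, had 3499 against 2801 (0.32). Both subunits of the PAN2-PAN3 deadenylase were lower, each on its only measured probe set. PAN2 had 352 against 443 (-0.33, within the usual spread of 0.34) and PAN3 6322 against 7854 (-0.31, usual spread 0.17).

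Genes that edit, tail or degrade small RNAs were lower in 10 and higher in 4 of 14 measured (median -0.05). XRN1, the cytoplasmic exonuclease for decapped RNA, had 4144 with siRNA-Tbet and 5371 with siRNAc (1.30-fold lower, log2 ratio -0.37). All 4 of its probe sets were lower, the weakest at -0.02, as were all those of 9.38% of genes with 4 measured probe sets. LIN28B, which blocks let-7 processing, had 2615 and 3307 on its single probe set (log2 ratio -0.34). DIS3L2, the exonuclease of tailed let-7 precursors, had 696 and 494 (log2 ratio 0.49), with 3 of 4 probe sets higher, and ZSWIM8, a factor in target-directed microRNA decay, had 1865 and 1669 (0.16).

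Of the cofactors of the nuclear steps, 12 of 15 measured genes were higher and 3 lower on their brightest probe sets (median 0.04). Many of these genes were bright, and the brightest decile of all measured probe sets also had a median of 0.04. KHSRP, which binds some let-7 precursors, was named after its values were seen. On its brightest probe set it had 12814 against 13087 (log2 ratio -0.03), but all 4 of its probe sets were lower, down to -0.95. Among genes with 4 measured probe sets, 9.38% were lower on all of them. NCBP1, of the nuclear cap-binding complex, had 3563 against 3263 (log2 ratio 0.13) and SRSF3, a splicing factor that aids processing, 31669 against 29050 (0.12). BRCA1, reported to bind the Microprocessor, had 4499 against 5163 (-0.20), and SRRT, which links capped transcripts to it, 16197 against 17280 (-0.09). Of the 4 PIWI genes, the germline relatives of the Argonautes, PIWIL4 was the only one measured, at 291 and 286 (log2 ratio 0.02).

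The windows around transcription starts of the members other than AGO2 were searched for the T-box element that T-bet is known to bind. RefSeq windows of 300 bases (250 before to 50 after a start, GRCh38.p14) were searched for the 9 members other than AGO2, 17 windows in all. The motif AGGTGTGA, on either strand (reverse TCACACCT), was in 0 of the 17, and in 0.98% of all 35116 windows. The shorter GGTGTGA, which the first contains, was also in 0 of the 17 and in 3.45% of all windows. At such low shares an empty result says only that these letters are not in these windows. The members' windows were GC-rich, with 13 of 17 above the median of 58.7% over all windows, the highest being that of DGCR8 at 80.3%.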

How the data were processed

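Total RNA from each group was hybridised to 1 Affymetrix 3' expression array. The deposited values are linear signal intensities made with MAS5, per the submitters' processing notes, which name no version. Both arrays have a 2% trimmed mean of 1000.1, and no further scaling was applied. MAS5 subtracts mismatch signal, which makes low intensities noisy, and detection calls were not used here.

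Gene names came from the platform annotation, with symbols updated through gene numbers to RefSeq (GRCh38.p14). Of 54675 probe sets, 41097 were listed for 1 gene (41043 matched), 1801 for several and 11777 for none. Gene counts used probe sets with 1 gene. Each gene was read by its brightest probe set, avoiding the suffix _x_at where another existed. All 10 members, every probe set, and from each other list the 2 highest and 2 lowest genes were named. The usual spread compares the 2 brightest measured probe sets of each gene: it is the SD of their log2 ratios' difference over √2, in 10 signal bins, and leaves out variation between cultures and arrays. The members and lists were chosen with earlier results of these data known. Alternatives were 3 other scalings, 3 other floors, 3 other choices of probe set and other folds. Calculations used Python 3.11.15 with pandas 2.3.3 and statsmodels 0.14.6, and were tested on simulated arrays.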

Additional observations from a re-analysis of the deposited data

How the results depend on the processing

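With 1 array per group no array could be left out, and no paired analysis was possible because the groups hold 1 sample each. The count of 1 member at 1.5-fold or more was 2 with plain _at probe sets only (AGO2 higher, PRKRA lower), 2 for signals at least 25% above the other array's (AGO2 higher, AGO3 lower) and 0 at a fold of 2. Over all measured genes, 7.65% were higher and 11.0% lower by that 25%, and 0.222% and 0.321% at a fold of 2, so 1 of 9 each way is near the background. With plain _at probe sets 8 members were measured, and 2.17% of all measured genes were at least 1.5-fold higher and 3.52% lower. With each gene's second-brightest probe set the count was again 1, but this was PRKRA (-0.59), AGO2 having no second probe set of its own. There 6 members were measured, and 3.41% of all measured genes were at least 1.5-fold higher and 3.43% lower. Counting the probe sets shared with CASC7 or MIR1306, added after seeing the data, gave 0, and AGO2 turned to -0.013. AGO2 otherwise lay at 0.65 to 0.68. All those settings read it by the only probe set listed for AGO2 alone, so the choice of probe set could not move it. The members' median ran from -0.05 to -0.00403 in the settings tried. That of the other pathway genes, 0.02, was -0.00890 after quantile normalization. With the trend of the ratio over signal removed it was 0.000231, with 36 genes higher and 36 lower. XPO5 turned positive (0.12) with the second-brightest probe set and with the median over probe sets, and PRKRA was 0.0071 after median scaling. The other 6 members read kept their sign under every setting that gave them a value. DROSHA and AGO4 have 1 measured probe set each, so the choice of probe set could not change them. The dimmest measured probe set of AGO1 was slightly positive (0.04) and was not read by itself in any setting. Signals below the median limit AGO4, read by 1 of its 4 probe sets.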

Other observations

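Of the members' 8 probe sets that lay below the median on both arrays, 7 had a higher signal on the siRNA-Tbet array before any floor, among them all 3 of AGO4 and all 3 of DICER1. Over all 25562 such probe sets the share was 49.6%. Signals this low have no dependable ratio, and nothing was counted from them.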
